A study of Homo sapiens with 28 samples.

Results

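The genes described here are 8 genes that break down, reduce, bind or sense retinoic acid: CYP26A1, CYP26B1, DHRS3, CRABP1, CRABP2, RARA, RARB and RARG. They were taken by gene name from a deposited table of 58219 genes, where each name stands once, and were followed through all 14 groups of the study. The cells were H9, an established human embryonic stem cell line, either SOX1-/- (here KO, with libraries numbered 26 and 48) or wild type (WT, with libraries numbered 1 and 2). The KO and WT cells each gave undifferentiated stem cells on day 0 (ES), and then cells labelled IWP2, CT0.4 and CT1.0 on days 4 and 8, so that each of the 14 groups holds 2 libraries. IWP2 is known as an inhibitor of WNT secretion; the sources used here do not say what CT stands for, nor which unit goes with 0.4 and 1.0. They also do not say whether the numbers 26, 48, 1 and 2 are clones, cultures or runs, so p-values measure only a spread between libraries. The series title places the work in the regional identity of neural progenitors, and poly(A) RNA was sequenced. Values are TPM, transcripts per 1000000, a level corrected for transcript length. Differences are on the log2(TPM + 1) scale, with the standard error (SE) of the fit, and a gene was called at an adjusted p under 0.05 (limma, Benjamini-Hochberg over all genes tested within a comparison). That scale understates the change of genes near 1 TPM. The SE and p-values rest on a spread pooled over the 14 groups. Both can be too small for a group whose 2 libraries differ widely. For CYP26A1 in CT1.0 on day 4 the libraries differed 6.40 times in KO and 1.21 times in WT.

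Retinoic acid is made from vitamin A: retinol is oxidised to retinaldehyde, and enzymes of the ALDH1A family oxidise retinaldehyde to the acid. CYP26 enzymes hydroxylate retinoic acid and so clear it, DHRS3 reduces retinaldehyde back to retinol, and the CRABP proteins bind retinoic acid in the cytoplasm. The receptors RARA, RARB and RARG pair with RXR proteins on DNA elements made of direct repeats, and CYP26A1 and RARB are textbook targets of their own pathway. In vertebrate embryos retinoic acid from the trunk patterns the hindbrain and spinal cord, while CYP26 enzymes keep it from more anterior tissue.

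The 8 genes had 16 promoter windows in the RefSeq table (GRCh38.p14), each from 250 bases before to 50 bases after a transcript start. A direct repeat with a spacer of 5 bases (the DR5 retinoic acid response element), searched on both strands, stood in 2 of these windows and in 31 of 35116 windows of all genes, which is 0.0883%. The 2 windows belong to RARB and CYP26A1. Their 250 upstream bases are shown because they hold the repeat, which capitals mark. The 4 genes called between KO and WT below are annotated (GRCh38, GENCODE 29) at chr10:93073475-93077890 on the plus strand (CYP26A1), chr3:25174332-25597932 on the plus strand (RARB), chr12:53210567-53232980 on the minus strand (RARG) and chr15:78340324-78348230 on the plus strand (CRABP1). The RARB window lies at chr3:25428013-25428262 and the CYP26A1 window at chr10:93073643-93073892, both on the plus strand. Both lie inside the annotated spans of their genes and belong to inner transcript starts. RARB had 4 windows and CYP26A1 had 2, and in each gene 1 window held the repeat. TPM here are per gene and do not tell transcript starts apart.
RARB: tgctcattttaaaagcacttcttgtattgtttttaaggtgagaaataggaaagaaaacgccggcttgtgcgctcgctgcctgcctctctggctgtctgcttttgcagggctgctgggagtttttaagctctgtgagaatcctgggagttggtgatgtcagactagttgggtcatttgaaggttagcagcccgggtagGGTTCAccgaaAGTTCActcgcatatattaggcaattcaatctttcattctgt
CYP26A1: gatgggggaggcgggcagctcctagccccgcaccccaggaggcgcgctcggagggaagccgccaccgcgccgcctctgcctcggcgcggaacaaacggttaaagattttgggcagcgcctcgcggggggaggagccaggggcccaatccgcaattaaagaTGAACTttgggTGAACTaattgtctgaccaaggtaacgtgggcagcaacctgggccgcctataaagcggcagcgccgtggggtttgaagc
In RARB the repeat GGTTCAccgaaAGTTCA ran on the strand of the gene from base -53 to base -37 relative to the transcript start of that window. In CYP26A1 it read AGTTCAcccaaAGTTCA on the opposite strand, from base -90 to base -74. The exact spelling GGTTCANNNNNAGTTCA was found in 6 windows of all genes (0.0171%) and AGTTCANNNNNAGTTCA in 4 (0.0114%). Both spellings were read from the 2 windows shown, which are among the windows counted. The other 6 genes had no such repeat in their windows, and neither did any of the 12 genes with a window in a list of retinoic acid responsive genes used below. Binding to these windows was not measured, and a link of the repeat to expression was not tested.

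All 28 libraries entered 1 fit of 27912 genes that reached 1 TPM in at least 2 libraries. All 8 genes passed, although CYP26B1 did so with 3 libraries, RARB with 7, DHRS3 with 11 and CYP26A1 with 16. Such a gene could pass through the groups where it was high, and the 7 libraries of RARB were all labelled CT1.0. SOX1 itself, a transcription factor of early neural tissue, stood at 0.705 and 3.08 TPM in KO CT1.0 cells on day 4, against 84.1 and 98.0 TPM in WT. On day 8 in CT1.0 it stood at 1.14 and 2.77 TPM in KO and at 72.1 and 79.4 TPM in WT. Elsewhere SOX1 was much lower in WT. It stood there at 0.264 and 0.177 TPM in ES cells. On day 4 WT had 0.907 and 0.990 TPM in IWP2 and 4.88 and 7.01 TPM in CT0.4. On day 8 WT had 10.6 and 9.90 TPM in IWP2 and 11.3 and 15.7 TPM in CT0.4. The 4 WT day 4 libraries labelled CT0.4 and CT1.0 stood apart, with 17694 to 18233 genes at 1 TPM or more against 18876 to 20338 in the other 24. The median difference of all genes between KO and WT in CT1.0 on day 4 was 0.19, and 0.01 with median-ratio scaling of the columns. Of the calls there 83.3% were higher in KO, and 41.0% with that scaling, so differences in this comparison are given with both. In CT0.4 on day 4 the split was 86.6% higher and 31.0% with that scaling, and in CT1.0 on day 8 it was 30.3% and 46.5%.

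Across the 14 groups the 8 genes spanned very different ranges. CRABP1 had the highest level, 5755 TPM in a WT CT1.0 library on day 8, which was 0.576% of all TPM in that library and at its best rank it was the 11th highest of all genes in that group. CRABP2, its paralog, stayed between 87.6 and 893 TPM in every library. CYP26A1 had the widest span of group means, 287 TPM in WT CT1.0 on day 4 over 0.209 TPM in KO IWP2 on day 8. RARG ran between 2.79 and 52.2 TPM and RARA between 5.38 and 14.7 TPM, so RARA varied least. DHRS3 had its highest value of 15.8 TPM in ES cells, RARB reached 14.1 TPM in CT1.0 and CYP26B1 reached only 2.41 TPM. RARA group means fell in an order in which nearly every neighbour overlapped, 13.3 TPM in KO CT0.4 on day 8 being the highest and 6.5 TPM in WT CT0.4 on day 4 the lowest.

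**Figure D1:**
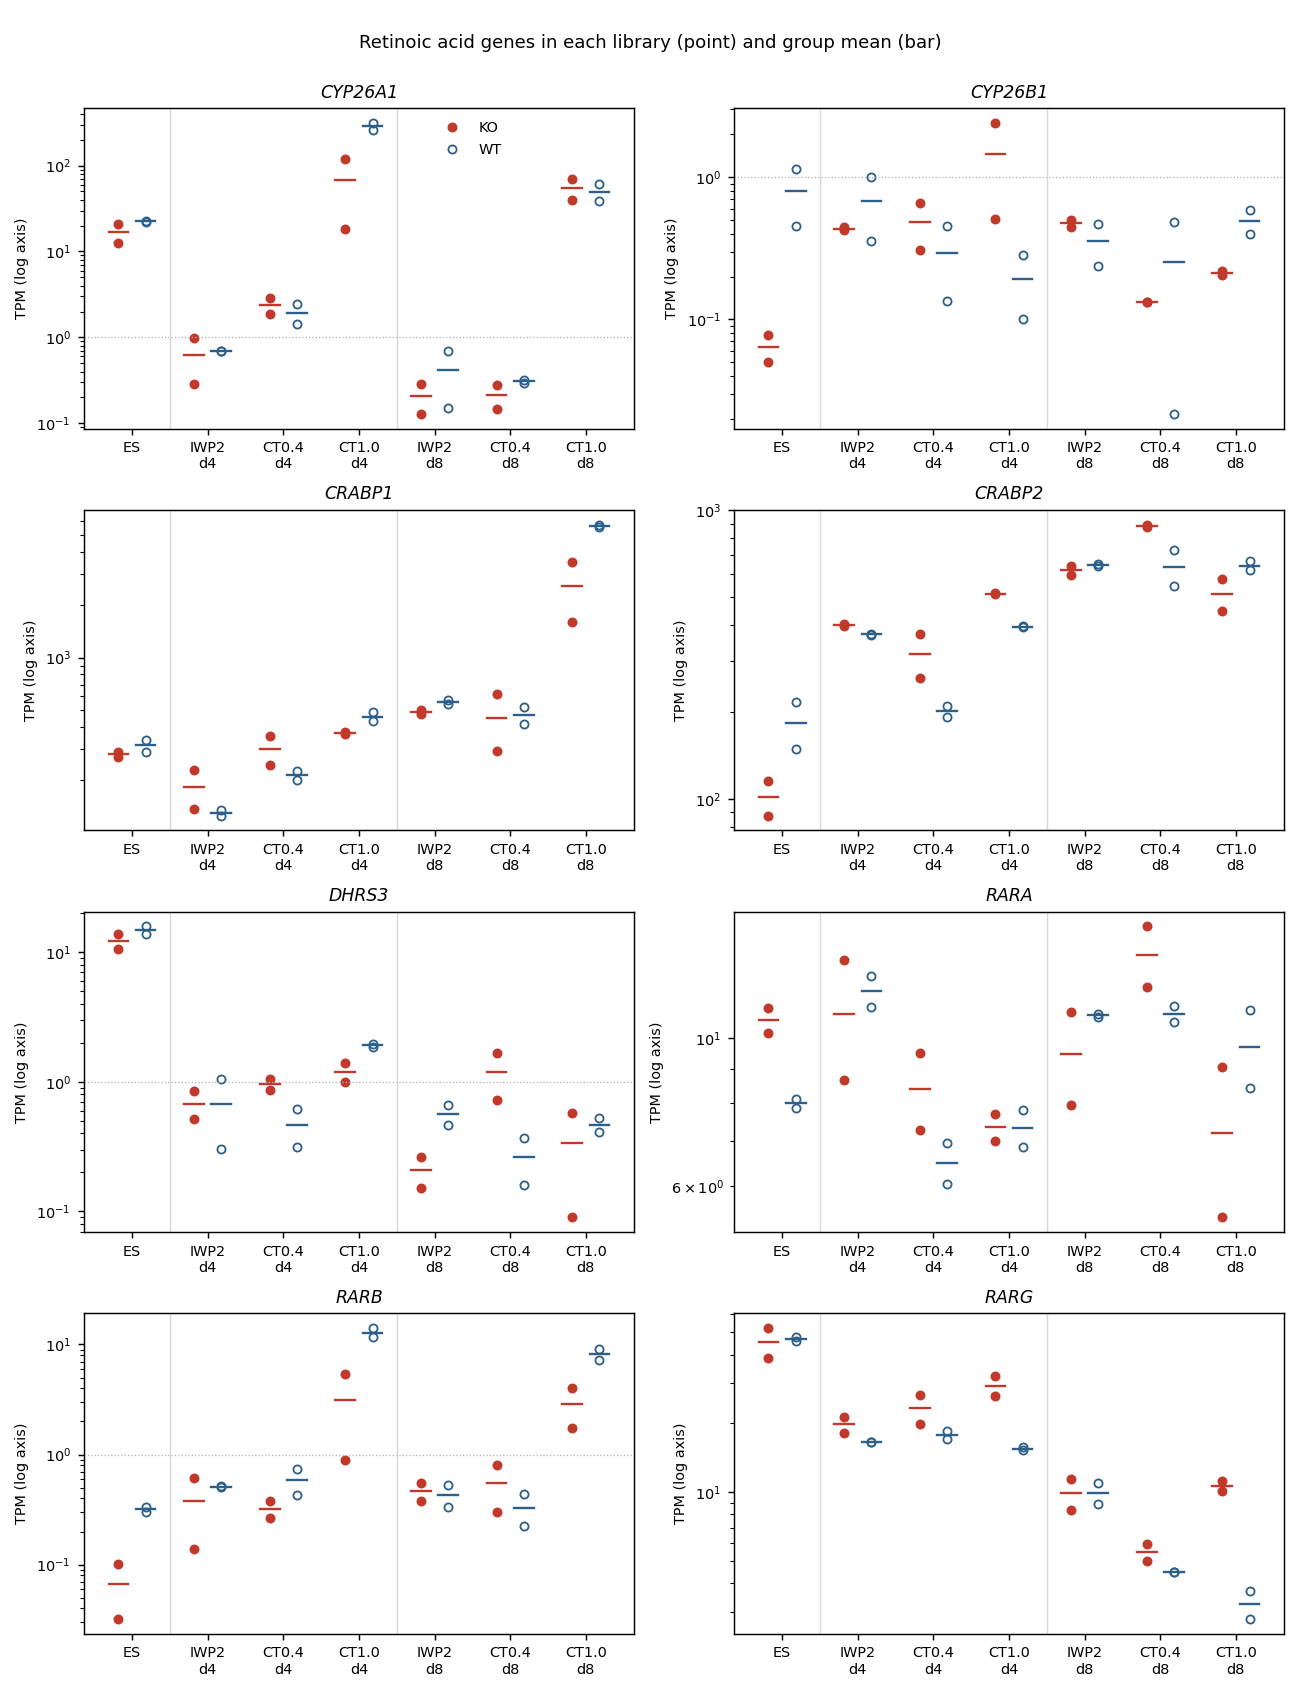
TPM of the 8 genes on a log axis in each library (points) with group means (bars), KO filled and left of WT open, for ES cells and for the 3 labels on days 4 (d4) and 8 (d8); the dotted line, where drawn, is 1 TPM. CYP26A1 and RARB peak in WT CT1.0 cells on day 4 at 287 and 12.8 TPM, CRABP1 in WT CT1.0 on day 8 at 5682 TPM, and DHRS3 and RARG in ES cells.

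Between SOX1-/- and WT cells 4 of the 8 genes were called, each in CT1.0 and in no other group. RARB stayed below 1 TPM in every library of the other groups and passed the filter only through CT1.0. CYP26A1 did not exceed 2.86 TPM in IWP2 and CT0.4. A lower level in KO could hardly show at such levels. The lack of calls of these genes there therefore does not tell whether their KO difference is limited to CT1.0. CT1.0 was also the label with the most SOX1 in WT, which did not exceed 15.7 TPM in the other groups. In CT0.4 SOX1 was likewise called lower in KO on both days (limma), where 0 of 8 genes were called. SOX1 level and label cannot be told apart here, and a link between SOX1 level and these calls was not tested. On day 4 CYP26A1 and RARB were lower and RARG higher in KO than in WT, 3 of 8 genes where 14.9% of all genes tested were called. On day 8 CRABP1 and RARB were lower and RARG higher, again 3 of 8, beside 14.3% of all genes. In the other 5 groups 0 of 8 genes were called by limma, where 0.219% of all genes were called in ES cells, 0.0430% in IWP2 on day 4, 4.24% in CT0.4 on day 4, 0.0609% in IWP2 on day 8 and 0.416% in CT0.4 on day 8. At an unadjusted p under 0.05 the counts in those 5 groups, in the same order, were 2 of 8, 0, 1, 0 and 2. The median difference of the 8 genes was -0.15 in CT1.0 on day 4, beside 0.19 for all genes, and -0.32 on day 8, beside -0.02.

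CYP26A1, the main enzyme that clears retinoic acid in early embryos, was the gene with the largest KO difference. In CT1.0 on day 4 it stood at 18.5 and 118 TPM in KO, against 259 and 314 TPM in WT. Both KO libraries lay below both WT libraries, but they differed from each other by more than the WT libraries did. The difference was -2.57 ± 0.55 (SE; adjusted p = 0.00445), a mean 4.20 times higher in WT, and with median-ratio scaling it was -2.84 (adjusted p = 0.00202). Without KO library 26 it was -1.27 and no longer called (adjusted p = 0.0637), without KO library 48 it was -3.88, and it was not called when only these 4 libraries were fitted (adjusted p = 0.141). On day 8 in CT1.0 the level was 39.5 and 69.3 TPM in KO and 60.3 and 38.8 TPM in WT, and the groups overlapped. The day 8 difference was 0.11, with a 95% interval from -1.04 to 1.26 (adjusted p = 0.988). In ES cells CYP26A1 stood at 12.5 and 21.0 TPM in KO and 22.3 and 22.6 TPM in WT, a difference of -0.44 with an interval from -1.60 to 0.71. In IWP2 and CT0.4 no library exceeded 2.86 TPM on day 4 or 0.693 TPM on day 8, in KO or in WT.

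CYP26B1, a second enzyme of the same family, was barely detected. In CT1.0 on day 4 it stood at 0.511 and 2.41 TPM in KO, against 0.101 and 0.286 TPM in WT. The KO libraries were both higher, and the difference of 0.93 ± 0.32 (SE) missed the threshold (adjusted p = 0.0586; 0.89 with median-ratio scaling, adjusted p = 0.0702). Without KO library 26 it was 1.52 and called (adjusted p = 0.00921), and without KO library 48 it was 0.34. In ES cells it stood at 0.0781 and 0.0499 TPM in KO and 0.455 and 1.14 TPM in WT, also without a call (adjusted p = 0.409). CYP26C1, the remaining family member, did not exceed 0.244 TPM in any library and was not tested.

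DHRS3, which turns retinaldehyde back to retinol, was not called between KO and WT in any of the 7 groups. In ES cells it stood at 10.6 and 13.7 TPM in KO and 15.8 and 13.8 TPM in WT, a difference of -0.27 with a 95% interval from -0.83 to 0.29. Its largest difference was in CT0.4 on day 8, with 0.726 and 1.67 TPM in KO and 0.366 and 0.159 TPM in WT. There the KO libraries were both higher, and the difference of 0.77 had an adjusted p of 0.307.

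CRABP1, which binds retinoic acid and is plentiful in the embryonic hindbrain and neural crest, was lower in KO on day 8 in CT1.0. It stood at 1593 and 3524 TPM in KO, against 5609 and 5755 TPM in WT. The WT libraries were nearly equal and both KO libraries lay below them. The difference was -1.26 ± 0.33 (SE; adjusted p = 0.0158), a mean 2.22 times higher in WT. It fell to -0.69 without KO library 26 (adjusted p = 0.301) and lost its call at nearly the same size without either WT library, where the adjusted p was 0.0842 without library 1 and 0.0728 without library 2. On day 4 in CT1.0 the level was 364 and 373 TPM in KO and 432 and 487 TPM in WT, a difference of -0.31 (adjusted p = 0.593) and of -0.58 with median-ratio scaling (adjusted p = 0.258).

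CRABP2, which carries retinoic acid to the receptors, was not called between KO and WT in any group. It came nearest in CT0.4 on day 4, at 374 and 264 TPM in KO against 192 and 210.4 TPM in WT, where the difference was 0.64 (adjusted p = 0.0530), and 0.44 with median-ratio scaling (adjusted p = 0.187). In ES cells it stood at 87.6 and 116 TPM in KO and 217 and 149 TPM in WT, a difference of -0.83 (adjusted p = 0.0662). These 2 differences have opposite signs and each kept its libraries apart. The ES difference was called without WT library 2, at -1.10 (adjusted p = 0.00977), and that of CT0.4 was called without KO library 48, at 0.89 (adjusted p = 0.0264). In ES cells CRABP1 exceeded CRABP2 by 3.08 and 2.51 times in KO libraries and 1.56 and 1.95 times in WT libraries. The ratio in CT1.0 on day 8 was 3.55 and 6.09 in KO and 8.42 and 9.27 in WT, the highest of all groups, while in IWP2 on both days CRABP2 was the more abundant of the pair in every library.

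Among the receptors RARB, whose gene is itself switched on by retinoic acid in many cells, was lower in KO. In CT1.0 on day 4 it stood at 0.889 and 5.43 TPM in KO, against 11.6 and 14.1 TPM in WT. The groups did not overlap, and KO library 26 was close to the level of the other labels. The difference was -1.98 ± 0.40 (SE; adjusted p = 0.00341), -2.23 with median-ratio scaling (adjusted p = 0.00139) and -1.10 without KO library 26 (adjusted p = 0.0630). It was not called when only these 4 libraries were fitted (adjusted p = 0.122). On day 8 in CT1.0 RARB stood at 1.74 and 4.06 TPM in KO and 7.23 and 9.11 TPM in WT. The day 8 difference of -1.29 ± 0.40 (SE) passed narrowly (adjusted p = 0.0412) and was not called with a pseudocount of 0.1 (adjusted p = 0.169), with no filter (0.0671), with median-ratio scaling (0.0601) or without either WT library or KO library 26 (0.113, 0.185 and 0.397 without WT library 1, WT library 2 and KO library 26, the last at -0.85). In ES, IWP2 and CT0.4 cells RARB stayed below 1 TPM in every library.

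RARB shares its locus with TOP2B, a topoisomerase gene on the opposite strand with up to 109 TPM, and the strand used in counting is not given. The annotated exons of the genes share 28 bases, of 3697 exon bases of RARB. TOP2B stood in CT1.0 on day 4 at 65.7 and 66.0 TPM in KO and 66.4 and 67.3 TPM in WT, a difference of -0.02 (adjusted p = 0.979), and -0.29 with median-ratio scaling (adjusted p = 0.0857). On day 8 its difference was -0.20 (adjusted p = 0.258), and TOP2B was not called in either. CRABP1 and RARA also overlap antisense transcripts, which reached 5.46 and 1.29 TPM.

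RARG, the receptor that prevails in undifferentiated cells, was higher in KO in CT1.0 on both days. On day 4 it stood at 32.1 and 26.3 TPM in KO, against 15.3 and 15.7 TPM in WT. The difference was 0.87 ± 0.18 (SE; adjusted p = 0.00358), 0.61 with median-ratio scaling (adjusted p = 0.0327) and 0.73 without KO library 26 (adjusted p = 0.0579). On day 8 RARG stood at 11.2 and 10.2 TPM in KO, against 2.79 and 3.69 TPM in WT. The libraries of each genotype lay close together and far from the other, and the difference was 1.47 ± 0.18 (SE; adjusted p = 8.67e-05). This day 8 difference was called with each of the 4 libraries left out in turn, from 1.31 to 1.62. It was not called when only these 4 libraries were fitted (adjusted p = 0.107). RARA, the most evenly expressed receptor, was not called in any of the 7 groups. Its level in CT1.0 on day 8 was 5.38 and 9.04 TPM in KO and 11.003 and 8.41 TPM in WT, a difference of -0.41 (adjusted p = 0.253).

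**Figure D2:**
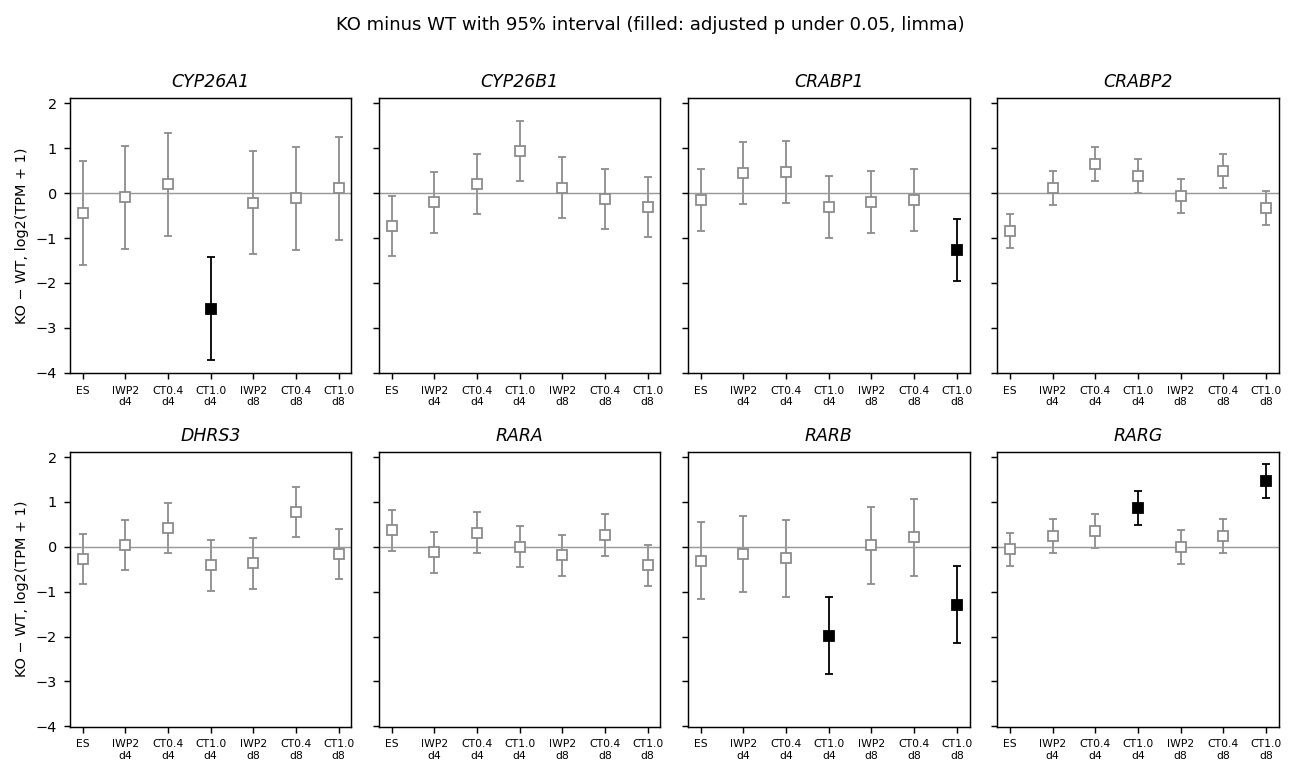
Difference between KO and WT (vertical axis, log2(TPM + 1)) for each of the 8 genes in the 7 groups (horizontal axis, d4 and d8 being days), with 95% intervals from limma; filled squares mark an adjusted p under 0.05. Filled squares stand only at CT1.0: CYP26A1, RARB and RARG on day 4 at -2.57, -1.98 and 0.87, and CRABP1, RARB and RARG on day 8 at -1.26, -1.29 and 1.47.

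The make-up of the receptor pool showed the same contrast as shares of the summed TPM of the 3 receptors. The sum itself was alike in CT1.0 on day 4, 40.7 and 38.7 TPM in KO against 33.7 and 37.6 TPM in WT. RARB made up 2.18% and 14.02% of it in KO, against 34.3% and 37.5% in WT. RARG made up 78.9% and 67.9% in KO and 45.3% and 41.8% in WT, so that on day 4 RARG was the most abundant receptor in all 4 libraries. On day 8 the sum was 18.3 and 23.3 TPM in KO and 21.0 and 21.2 TPM in WT. RARB then made up 9.50% and 17.5% in KO and 34.4% and 43.0% in WT, while RARG made up 61.1% and 43.7% in KO and 13.3% and 17.4% in WT. RARG was the most abundant receptor in both KO libraries and the least abundant in both WT libraries. RARA held 29.4% and 38.8% in KO and 52.3% and 39.6% in WT. In ES cells RARG held at least 79.0% of the pool in every library, and in CT0.4 on day 8 RARA held 68.7% and 69.3% in KO and 69.5% and 69.2% in WT.

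**Figure D3:**
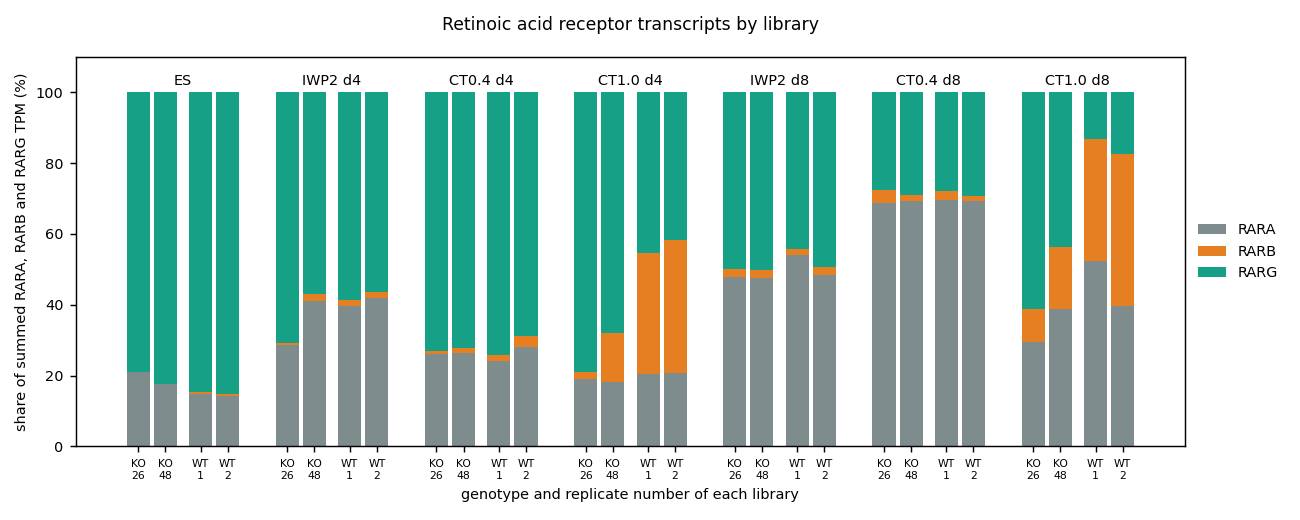
Share (%) of RARA, RARB and RARG in their summed TPM, 1 bar per library, with the KO libraries 26 and 48 left of the WT libraries 1 and 2 in each group (d4 and d8 are days). RARB holds 2.18% to 17.5% in KO CT1.0 and 34.3% to 43.0% in WT CT1.0, and at most 3.75% in any library of the other groups, and RARG shrinks to 13.3% and 17.4% in WT CT1.0 on day 8.

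Whether the KO difference itself varied between labels or days was tested as the difference of the KO differences. RARG in CT1.0 on day 8 stood apart from IWP2 by 1.48 ± 0.25 (SE; adjusted p = 0.00588), 1 of 8 genes beside 3.22% of all genes, and from CT0.4 by 1.23 ± 0.25 (adjusted p = 0.0129), 1 of 8 beside 4.60%. For CYP26A1 the KO difference in CT1.0 was 2.68 ± 0.77 (SE) higher on day 8 than on day 4 (adjusted p = 0.0429), 1 of 8 beside 7.56% of all genes, but this call was kept with only 1 of 8 libraries left out, fell to 1.38 without KO library 26 of day 4 (adjusted p = 0.132), and was lost with a pseudocount of 0.1, with no filter and with robust variances (adjusted p = 0.106, 0.0683 and 0.0582). On day 4 the KO difference of CYP26A1 was -2.48 ± 0.77 (SE) in CT1.0 relative to IWP2 and that of RARB -1.83 ± 0.57; neither was called (adjusted p = 0.0724 and 0.0752), and both were with median-ratio scaling (0.0478 and 0.0447). By limma 0 of 8 genes were called in this comparison, where 5.09% of all genes were and 4 of 8 had an unadjusted p under 0.05. Likewise 0 of 8 were called for CT1.0 relative to CT0.4 on day 4 (0.297% of all genes; 3 of 8 unadjusted), CT0.4 relative to IWP2 on day 4 (1.34%; 0 of 8) and on day 8 (0.147%; 2 of 8), and for day 8 relative to day 4 in IWP2 (0.0537%; 0 of 8) and in CT0.4 (0.838%; 0 of 8). These comparisons share libraries with those of KO and WT above. A difference between labels in the KO effect was therefore not shown for CYP26A1, RARB or CRABP1 on the unscaled values.

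CYP26A1 and RARB were higher in CT1.0 than in IWP2 in both genotypes and on both days, and CRABP1 likewise. RARB passed the filter only through CT1.0 libraries, so its calls between CT1.0 and other labels are not independent of that filter. Without the filter its day 4 call against IWP2 was kept in WT and lost in KO (limma, adjusted p = 9.13e-05 and 0.0543). On day 4 in KO 3 of 8 genes were called between CT1.0 and IWP2, beside 13.8% of all genes, and in WT 4 of 8, beside 20.0%. With median-ratio scaling 4 of 8 were again called in WT, while calls over all genes went from 5596 to 3336. CYP26A1 in CT1.0 on day 4 averaged 68.3 ± 70.4 TPM in KO, against 0.630 ± 0.491 TPM in KO IWP2 (SD, n = 2 each), a difference of 4.92 ± 0.55 (SE; adjusted p = 1.38e-05). In WT it averaged 287 ± 38.6 TPM in CT1.0 and 0.695 ± 0.00903 TPM in IWP2, a difference of 7.40 (adjusted p = 1.24e-07). The difference of RARB was 1.36 in KO (adjusted p = 0.0326) and 3.19 in WT (adjusted p = 3.63e-05). That of CRABP1 was 1.06 in KO (adjusted p = 0.0390) and 1.82 in WT (adjusted p = 7.93e-04). The KO calls of RARB and CRABP1 were each kept with only 1 of 4 libraries left out; RARB fell to 0.48 without KO library 48 of CT1.0 (adjusted p = 0.460) and stood at 2.25 without library 26, and CRABP1 fell to 0.70 without KO library 48 of IWP2 (adjusted p = 0.340). DHRS3 was the fourth gene called in WT, at 1.97 and 1.87 TPM in CT1.0 and 1.05 and 0.301 TPM in IWP2 (0.84, adjusted p = 0.0333). That call was kept with 1 of 4 libraries left out, fell to 0.51 without WT IWP2 library 2 (adjusted p = 0.308), and was lost with a pseudocount of 0.1 or no filter (adjusted p = 0.0815 and 0.0549).

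Between CT1.0 and CT0.4 on day 4, 1 of 8 genes was called in KO, beside 1.78% of all genes, and 4 of 8 in WT, beside 6.47%. CYP26A1 was that gene in KO, with a difference of 3.85 (adjusted p = 0.00126; 2.55 without KO CT1.0 library 48), against 6.63 in WT (adjusted p = 1.43e-06). RARB stood at 0.889 and 5.43 TPM in KO CT1.0 and 0.265 and 0.381 TPM in KO CT0.4, without a call. In WT it stood at 11.6 and 14.1 TPM in CT1.0 and 0.429 and 0.740 TPM in CT0.4 (3.13, adjusted p = 1.13e-04). The other genes called in WT were CRABP2 at 0.97 (adjusted p = 0.00269) and DHRS3 at 1.003 (adjusted p = 0.0295), the DHRS3 call being lost with any of the 4 libraries left out (adjusted p from 0.0719 to 0.216). Between CT0.4 and IWP2 on day 4 limma called 0 of 8 genes in KO, beside 4.80% of all genes and with 1 of 8 at an unadjusted p under 0.05. In WT it called 2 of 8, beside 13.1%: CRABP2 at -0.88 (adjusted p = 0.00294) and RARA at -0.77 (adjusted p = 0.0255). Both stood lower in CT0.4, in the WT day 4 libraries that stood apart, and RARA was not called with median-ratio scaling or with any of the 4 libraries left out (adjusted p from 0.0553 to 0.192).

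On day 8 CYP26A1, CRABP1 and RARB were called higher in CT1.0 than in IWP2 and in CT0.4, in both genotypes. Against IWP2, 3 of 8 genes were called in KO, beside 20.5% of all genes, and 4 of 8 in WT, beside 10.8%. CYP26A1 differed by 5.47 in KO (adjusted p = 2.18e-06) and 5.15 in WT (adjusted p = 4.96e-06), so the WT value did not exceed that of KO on this day. CRABP1 differed by 2.27 in KO (adjusted p = 9.44e-05) and 3.34 in WT (adjusted p = 1.97e-06), and RARB by 1.35 in KO (adjusted p = 0.0247) and 2.67 in WT (adjusted p = 2.38e-04). The KO call of RARB was kept with 1 of 4 libraries left out. RARG was the fourth gene called in WT, at 2.79 and 3.69 TPM in CT1.0 and 8.88 and 10.98 TPM in IWP2 (-1.37, adjusted p = 4.87e-05). In KO it stood at 11.2 and 10.2 TPM in CT1.0 and 11.4 and 8.39 TPM in IWP2, and these overlapped. Against CT0.4 the calls were 6 of 8 in KO, beside 23.1% of all genes, and 3 of 8 in WT, beside 14.3%. RARG in KO was higher in CT1.0 than in CT0.4 by 0.86 (adjusted p = 0.00172), with 5.91 and 4.99 TPM in CT0.4. CRABP2 and RARA in KO were lower in CT1.0 than in CT0.4, by -0.80 (adjusted p = 0.00328) and -0.83 (adjusted p = 0.00925), both without a call under median-ratio scaling or without KO CT1.0 library 26, where RARA differed by -0.51. Between CT0.4 and IWP2 on day 8 the calls were 2 of 8 in KO, beside 16.5%, and 1 of 8 in WT, beside 12.2%. RARG was lower in CT0.4 in both genotypes, by -0.75 in KO (adjusted p = 0.00675) and -0.99 in WT (adjusted p = 9.00e-04), and DHRS3 in KO was higher in CT0.4 by 0.83 (adjusted p = 0.0400). The KO call of RARG was lost without KO IWP2 library 26 or KO CT0.4 library 48 (adjusted p = 0.104 and 0.0717). That of DHRS3 was kept with 1 of 4 libraries left out, fell to 0.52 without KO CT0.4 library 48 (adjusted p = 0.353), and was lost with no filter or median-ratio scaling (adjusted p = 0.0617 and 0.0566).

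**Figure D4:**
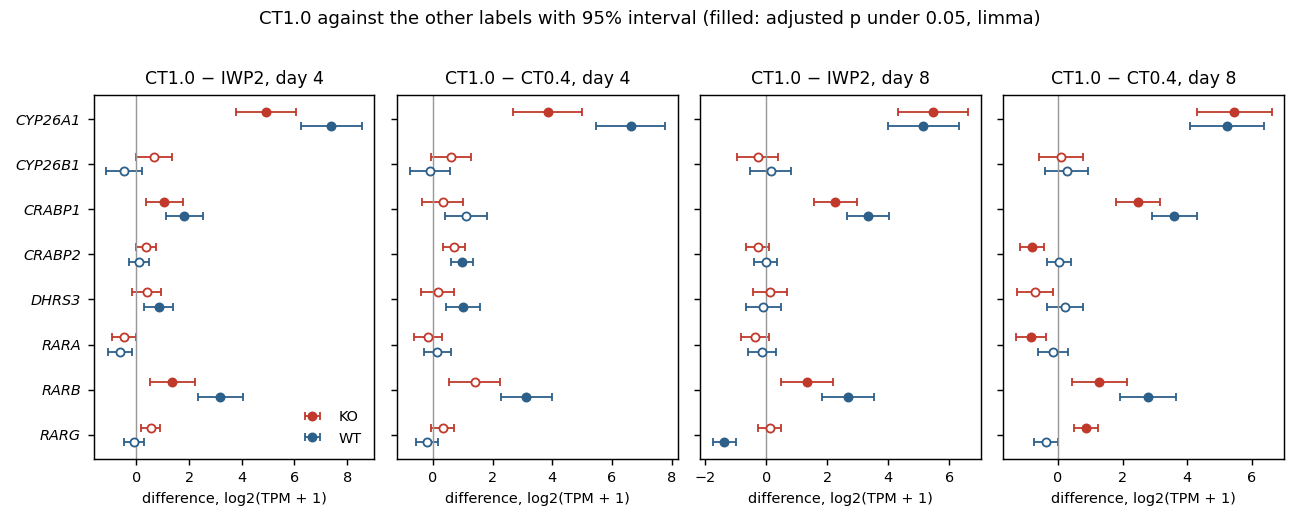
Difference between CT1.0 and IWP2 or CT0.4 on days 4 and 8 (horizontal axis, log2(TPM + 1), each panel with its own scale) for the 8 genes, KO above WT, with 95% intervals from limma; filled points mark an adjusted p under 0.05. CYP26A1 lies farthest right in every panel, at 4.92 in KO and 7.40 in WT against IWP2 on day 4, and RARG lies left of 0 in WT on day 8 at -1.37.

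From ES cells to day 4, RARG and DHRS3 fell in both genotypes under all 3 labels, while CYP26A1 fell in IWP2 and CT0.4 and rose in CT1.0. In KO 4 of 8 genes were called in IWP2, 4 in CT0.4 and 6 in CT1.0, beside 34.7%, 36.3% and 38.4% of all genes. In WT the counts were 5, 3 and 5 of 8, beside 35.2%, 29.9% and 31.0%. DHRS3 fell by 2.97 in IWP2, 2.74 in CT0.4 and 2.58 in CT1.0 in KO, and by 3.27, 3.44 and 2.43 in WT, with adjusted p from 2.52e-08 to 1.56e-06. No day 4 library exceeded 1.97 TPM, so DHRS3 left ES levels under every label. RARG fell by 1.14, 0.93 and 0.61 in KO and by 1.44, 1.34 and 1.53 in WT, in the same order of labels (adjusted p from 3.23e-06 to 0.0115). The KO fall of RARG in CT1.0 was -0.39 without KO ES library 48 and no longer called (adjusted p = 0.170). CYP26A1 fell by 3.43 in IWP2 and 2.37 in CT0.4 in KO, and by 3.79 and 3.01 in WT, with adjusted p from 3.10e-05 to 0.00224. In CT1.0 it rose by 3.61 in WT (adjusted p = 5.53e-05). In KO the rise was 1.48 (adjusted p = 0.0402), but the day 4 libraries at 18.5 and 118 TPM overlapped the ES libraries at 12.5 and 21.0 TPM, and it was not called with a pseudocount of 0.1, with no filter or with median-ratio scaling, and was 0.18 without KO library 48 of day 4. CRABP2 rose in 5 of the 6 comparisons, by 1.99, 1.63 and 2.34 in KO and by 1.04 in IWP2 and 1.13 in CT1.0 in WT.

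From day 4 to day 8 RARG fell again under every label in both genotypes, and CRABP1 and CRABP2 each rose in 5 of 6 comparisons. CRABP1 in KO CT0.4 differed by 0.53 without a call (adjusted p = 0.299), and CRABP2 in KO CT1.0 averaged 514 ± 92.5 TPM on day 8 and 515 ± 4.70 TPM on day 4 (SD, n = 2 each). With median-ratio scaling the rise was not called for CRABP1 in WT CT0.4 or for CRABP2 in WT CT1.0 and KO IWP2 (adjusted p = 0.0765, 0.167 and 0.0860). That of CRABP2 in KO IWP2, 0.62, was also lost with no filter and with robust variances (adjusted p = 0.0585 and 0.0605). In KO 3 of 8 genes were called in IWP2, 2 in CT0.4 and 2 in CT1.0, beside 9.72%, 21.5% and 11.0% of all genes. In WT the counts were 3, 4 and 5 of 8, beside 13.8%, 24.8% and 14.7%. RARG fell by 0.94 in IWP2, 1.90 in CT0.4 and 1.37 in CT1.0 in KO, and by 0.69, 1.78 and 1.97 in WT. With only the libraries compared, the fall in IWP2 was not called in KO or WT (limma, adjusted p = 0.109 and 0.0615), nor was that in KO CT1.0. In WT IWP2 the difference was -0.55 without WT library 1 of day 8. CRABP1 rose most in CT1.0, by 2.68 in KO (adjusted p = 5.79e-05) and 3.63 in WT (adjusted p = 1.68e-06). CYP26A1 in CT1.0 fell by 2.53 in WT (adjusted p = 0.00434), to 49.6 ± 15.2 TPM on day 8, against 287 ± 38.6 TPM on day 4 (SD, n = 2 each). The KO libraries averaged 54.4 ± 21.1 TPM on day 8 and 68.3 ± 70.4 TPM on day 4, and it was not called. RARB in CT1.0 was not called between the days in either genotype.

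The KO libraries 26 and 48 differed from each other in CT1.0 on day 4, and several genes moved together between them. CYP26A1 stood at 18.5 TPM in library 26 and 118 TPM in library 48, RARB at 0.889 and 5.43 TPM, and CYP26B1 at 0.511 and 2.41 TPM, always lower in library 26. SOX1 itself stood at 0.705 and 3.08 TPM in the same order. HOXA2, a hindbrain homeobox gene, stood at 0.899 and 11.3 TPM, and HOTAIRM1, a transcript of the HOXA cluster, at 5.81 and 49.9 TPM. CRABP1, CRABP2 and RARA did not show it, at 364 and 373, 512 and 518, and 7.70 and 7.01 TPM. RARG went the other way, at 32.1 TPM in library 26 and 26.3 TPM in library 48. On day 8 in CT1.0 library 26 was again the lower for CYP26A1, RARB and HOXA2, and was the lower for CRABP1. CYP26B1 was not, at 0.220 and 0.205 TPM, and RARG stood at 11.2 and 10.2 TPM. With a single library per number, this difference was not tested.

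Of 22 retinoic acid responsive genes, among them HOX genes and MEIS and NR2F transcription factors, 13 passed the filter. Between KO and WT 4 of the 13 were called in CT1.0 on day 4, 3 lower and 1 higher in KO, and 1 on day 8, lower in KO, and 0 in the other 5 groups, beside 14.9% of all genes on day 4 and 14.3% on day 8. With median-ratio scaling 5 were lower and 1 higher on day 4. The median over the 13 was 0.00 on both days, beside 0.19 and -0.02 for all genes. HOXA2 stood at 0.899 and 11.3 TPM in KO on day 4, against 18.5 and 24.8 TPM in WT (-2.22, adjusted p = 0.00942; -2.47 with median-ratio scaling). MEIS2, a homeobox cofactor of HOX proteins, was lower in KO on day 4, at 25.7 and 46.7 TPM against 70.0 and 79.2 TPM in WT (-1.08, adjusted p = 0.0107; -1.35 with that scaling). Without KO library 26 neither was called, HOXA2 at -0.87 and MEIS2 at -0.66 (adjusted p = 0.113 and 0.177). HOXA2 on day 8, at 7.60 and 16.996 TPM in KO and 25.6 and 27.6 TPM in WT, was not called. Against IWP2, CT1.0 cells had 4 of the 13 called and higher in KO and 5 in WT on day 4, and 8 in KO and 7 in WT on day 8, with 0 called and lower. The shares of all genes called were 13.8% in KO and 20.0% in WT on day 4, and 20.5% in KO and 10.8% in WT on day 8. HOTAIRM1 had the largest of these differences, 4.07 in KO and 5.30 in WT on day 4 and 7.01 in KO and 6.82 in WT on day 8.

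Of 16 genes for retinoic acid synthesis, 13 were tested. Between KO and WT 3 were called in CT1.0 on day 4, all higher in KO, beside 14.9% of all genes, with a list median of 0.01 beside 0.19 for all genes. With median-ratio scaling 2 were higher and 1 lower, and the list median was -0.13. RDH10, which oxidises retinol, stood at 3.23 and 3.96 TPM in KO and 1.06 and 0.802 TPM in WT (1.25, adjusted p = 0.00803; 1.11 with that scaling). RDH16 and RDH11, other retinol or retinaldehyde dehydrogenases and reductases, differed by 0.78 and 0.51, and by 0.68 and 0.24 with that scaling, where RDH11 was not called (adjusted p = 0.135). ALDH1A2, the main retinoic acid synthesising enzyme of the early embryo, was low in CT1.0, at 0.286 and 0 TPM in KO and 0.532 and 0 TPM in WT on day 4, and was not called. On day 8 in CT1.0 it stood at 1.26 and 3.99 TPM in KO and 0.790 and 0.945 TPM in WT, also without a call. ALDH1A1 was called in CT0.4 on day 8, at 1.21 and 1.74 TPM in KO and 5.56 and 11.99 TPM in WT (-1.91, adjusted p = 0.00151). Both RDH10 and ALDH1A1 had their highest group means in CT0.4 on day 8, where CYP26A1 was at or below 0.322 TPM in all 4 libraries; RDH10 averaged 38.3 TPM in KO and 18.2 TPM in WT.

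All 12 genes for retinol uptake, transport and storage were tested. In CT1.0 on day 4, 2 of the 12 were called, both higher in KO, a share near the 14.9% of all genes called there, with a list median of 0.51 beside 0.19 for all genes. With median-ratio scaling 2 were higher and 1 lower, and the list median was 0.30. STRA6, the membrane receptor that takes up retinol from its plasma carrier, stood at 28.5 and 18.7 TPM in KO, against 6.398 and 5.003 TPM in WT (1.86, adjusted p = 0.00157; 1.62 with that scaling). LRAT, which stores retinol as esters, stood at 5.81 and 2.51 TPM in KO and 1.60 and 1.48 TPM in WT (0.95, adjusted p = 0.0236; 0.78 with that scaling), and was not called without KO library 26 (0.47, adjusted p = 0.338). The only other call of this list was TTR, a plasma carrier of retinol-binding protein that is plentiful in choroid plexus and liver, in CT0.4 on day 8. It stood at 103.1 and 65.5 TPM in KO and 41.0 and 13.4 TPM in WT (1.76, adjusted p = 0.0277), and the difference fell to 0.99 without WT library 2 (adjusted p = 0.278).

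Of 5 receptor partners and other retinoid-binding genes, 4 were tested. RXRB was higher in KO on day 4 in CT0.4 (0.54, adjusted p = 0.0164) and CT1.0 (0.40, adjusted p = 0.0307), in the comparisons where the WT libraries stood apart, and in neither with median-ratio scaling (0.35 and 0.14; adjusted p = 0.0843 and 0.467). On day 8 in CT1.0, 2 of the 4 were called, both lower in KO, beside 14.3% of all genes. RXRA, a common partner of the receptors, stood at 14.2 and 17.6 TPM in KO, against 27.3 and 27.8 TPM in WT (-0.76, adjusted p = 2.51e-04). FABP5, which can carry retinoic acid to another nuclear receptor, stood at 46.6 and 81.2 TPM in KO and 136 and 139.7 TPM in WT (-1.15, adjusted p = 0.00575), and was not called without KO library 26 (-0.76, adjusted p = 0.140). Of 10 coregulators of nuclear receptors, 9 were tested, and RERE, NCOA1 and NRIP1 were called in CT1.0 on day 8, all lower in KO, by -0.76, -0.70 and -0.62, beside 14.3% of all genes; RERE and NRIP1 were each called with 1 of 4 libraries left out. In CT0.4 on day 4, 2 of the 9 were called, both higher in KO, beside 4.24% of all genes, among them EP300, an acetyltransferase coactivator (0.77, adjusted p = 0.0155; 0.58 with median-ratio scaling, adjusted p = 0.0508).

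Markers of cell types moved with these differences in CT1.0. The summed level of 8 neural progenitor genes was 551 and 752 TPM in KO and 973 and 1081 TPM in WT on day 4, and 521 and 788 TPM in KO and 1504 and 1431 TPM in WT on day 8. SOX1, the gene named in the KO genotype, is 1 of these 8. Without it the sums were 550.03 and 748 TPM in KO and 889 and 983 TPM in WT on day 4. The day 8 sums without it were 520.2 and 785 TPM in KO and 1432 and 1352 TPM in WT. On day 8 6 of the 8, SOX1 among them, were called lower in KO and 1, FABP7, higher, beside 14.3% of all genes. Without KO library 26, PAX6, SOX3, HES5 and LHX2 were no longer called, nor were STMN2 and DCX of the neuron genes. The summed level of 5 neuron genes was 132 and 306 TPM in KO and 741 and 607 TPM in WT on day 8, with TUBB3, STMN2 and DCX called lower. KO library 26 had the lowest of the 4 sums in each case, as it had for CRABP1 and RARB. Of 6 pluripotency genes NANOG, L1TD1 and ZFP42 were below 1 TPM in all 4 libraries on day 8, and the sum was 534 and 519 TPM in KO and 537 and 484 TPM in WT. Of 5 mesoderm genes 4 were below 1 TPM in KO and all 5 in WT on day 8, and SOX17 and GATA6 of the 5 endoderm genes were below 1 TPM in all 4 libraries. CXCR4, a chemokine receptor on that list, was higher in KO on day 4, at 22.0 and 15.5 TPM in KO and 3.86 and 1.97 TPM in WT (2.36, adjusted p = 3.84e-05), and on day 8, at 24.6 and 25.3 TPM in KO and 12.9 and 12.1 TPM in WT (0.94, adjusted p = 0.0251), where the call was lost with any of the 4 libraries left out. Of 6 surface ectoderm genes KRT5, KRT14, TP63 and GATA3 were below 1 TPM in both genotypes on both days. The keratins KRT18 and KRT8 were higher in KO on day 8, by 1.10 and 0.60 (adjusted p = 0.00199 and 0.00539), and neither was called without KO library 26 (adjusted p = 0.0523 and 0.133). KRT18 was also higher on day 4, by 0.75 (adjusted p = 0.0197), and not with median-ratio scaling (0.49, adjusted p = 0.137). The summed level of the 6 was 91.3 and 74.6 TPM in KO and 57.9 and 63.9 TPM in WT on day 4, and 79.5 and 59.2 TPM in KO and 36.2 and 46.5 TPM in WT on day 8. Among 5 neural crest genes TFAP2B and SOX10 were called higher in KO on day 8, with sums of 91.6 and 95.6 TPM in KO and 117 and 119.7 TPM in WT. In such bulk samples fewer cells of a type and less RNA per cell cannot be told apart, and the part of these markers in the differences of CRABP1, RARB and RARG was not tested.

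For each of the 8 genes the pattern over the 14 group means was compared with that of 11250 genes whose highest group mean was at least 10 TPM, on the log2(TPM + 1) scale, as a description without a test. The most similar gene to RARB was HOXA2 (Pearson r = 0.96), followed by SPSB4 (0.95) and PRMT8 (0.94). CYP26A1 was most like VGLL3 (0.90), SPARCL1 (0.89) and IMPDH2 (0.85). CRABP1 was most like ZNF703 (0.94), JAM2 (0.91) and WWTR1 (0.91), and CRABP2 most like MINDY1 (0.98), C1QTNF3 (0.97) and ARMCX3 (0.96). DHRS3 was most like SMOC2 (0.98), NMB (0.98) and MID1IP1 (0.97), which also peak in ES cells. RARG was most like MATK (0.97), FOXA3 (0.96) and SORL1 (0.95), and RARA most like EDC4 (0.92), NEURL4 (0.92) and MYH9 (0.92). CYP26B1, which was near the limit of detection, had the weakest likeness, to HDAC4 (0.83), TNRC6A (0.77) and HES7 (0.75). The group means share the 28 libraries, and the highest of 11250 such values is chosen for being high.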

How the data were processed

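Poly(A) RNA of 28 H9 libraries in 14 groups of 2 was measured as TPM per gene, which the authors deposited as a single table (58219 genes). Per the submitters' processing notes the tools were CASAVA 1.7 and Salmon 0.8.2 with the genome hg38; the annotation and the strand of counting are not given in the sources used here. TPM keep no depth, so the depth of a library is unknown and no counting interval is given. The labels name more than 1 sequencer without assigning them to libraries, so no sequencing batch could be fitted. The members and gene lists were chosen with earlier results of these data known. All 8 genes were named, and TOP2B was added after its values were seen. From each list the text drew on up to 4 called genes by size of change and up to 2 uncalled genes by level, with 3 most similar genes per member.

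Genes with at least 1 TPM in at least 2 libraries (27912) entered limma 3.58.1 (R 4.3.3) on log2(TPM + 1), with 1 mean per group, an intensity trend and 14 residual degrees of freedom. Adjusted p-values are Benjamini-Hochberg within each of 40 comparisons, and a gene was called at an adjusted p under 0.05. An exact permutation test of 2 against 2 libraries cannot go below 0.333 and was not used. Simulated data with planted changes served to test the script. Each result was recomputed with median-ratio scaling, with 0.1 as the pseudocount, without the filter, with robust variances and no trend, with the replicate number as a block, with only the libraries compared, and with each library left out; leaving out 4 WT day 4 libraries was added after seeing the data. Same-numbered libraries were checked for pairing: deviations from group means correlated above 0.1 in 8 of 21 pairs of groups in KO and 0 of 21 in WT. The highest correlation in KO was 0.204. The KO numbers thus carried over weakly between some groups, and the main fit has no term for them. Coordinates come from GENCODE 29, and promoter windows from RefSeq (GRCh38.p14), matched by symbol. Results of some listed genes are not reported here.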

Additional observations from a re-analysis of the deposited data

Results flagged for a closer look

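The KO minus WT difference of RARG in CT1.0 on day 8 was larger than that in IWP2 on day 8 by 1.48 (log2(TPM + 1); limma, adjusted p = 0.00588), which was called with each of 8 libraries left out in turn. It was larger than that in CT0.4 on day 8 by 1.23 (adjusted p = 0.0129), which was called with 5 of 8 libraries left out in turn, and not without WT CT1.0 library 1, KO CT1.0 library 26 or KO CT0.4 library 48 (adjusted p = 0.0716, 0.0640 and 0.0565). In CT1.0 both KO libraries, at 11.2 and 10.2 TPM, lay above both WT libraries, at 2.79 and 3.69 TPM. The KO minus WT difference of CYP26A1 in CT1.0 was 2.68 higher on day 8 than on day 4 (adjusted p = 0.0429), and this was called with 1 of 8 libraries left out, from 1.38 without KO library 26 of day 4 to 3.99 without KO library 48 of day 4. Each came from a test of the difference between the differences, and the cause was not tested.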

How the results depend on the processing

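Of 88 calls of a member in a comparison, 82 were kept with a pseudocount of 0.1, 80 with no filter, 78 with median-ratio scaling and 85 with robust variances and no trend; none of the 88 reversed direction under these, and 59 were kept with every single library left out. With the replicate number as a block all 88 calls were kept, so the pairing of numbers changed 0 calls. Fitting only the libraries compared left 55 of 84 calls, and its counts of members called, with the reported count in brackets, were 2 (3) for KO set against WT on day 4 in CT1.0, where CYP26A1 and RARB lost their calls and CRABP2 gained one, 0 (3) for KO set against WT on day 8 in CT1.0, 0 (1) for WT CT0.4 against IWP2 on day 8, 0 (3) for KO CT1.0 against IWP2 and 0 (1) against CT0.4 on day 4, 1 (2) for KO CT0.4 against IWP2 and 3 (6) for KO CT1.0 against CT0.4 on day 8, 3 (6) for KO CT1.0 day 4 against ES, 1 (3) for KO IWP2 and 0 (2) for KO CT1.0 day 8 against day 4. It gave 0 (1) for each of the 3 called differences of KO effects. Median-ratio scaling gave 1 (2) for WT CT0.4 against IWP2 on day 4, 2 (1) for KO CT1.0 against CT0.4 on day 4, 1 (2) for KO CT0.4 against IWP2 on day 8, 2 (4) for WT CT0.4 day 8 against day 4, 2 (0) for the KO effect on day 4 in CT1.0 against IWP2 and 2 (1) for that of day 8 against day 4 in CT1.0. No filter gave 1 (3) for KO CT1.0 against IWP2 on day 4, 1 (2) for KO CT0.4 against IWP2 of day 8, and 0 (1) for the effect of KO on day 8 against day 4 in CT1.0, which was also 0 with a pseudocount of 0.1 and with robust variances. Leaving out the 4 WT day 4 CT libraries kept 52 of 57 calls and gave 1 (2) for KO CT0.4 against IWP2 on day 8.

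With 1 library left out, the lone library of its group is assumed to vary like the other groups. Counts of members called for KO against WT then ran from 0 to 1 in ES and in CT0.4 on day 4, from 1 to 3 in CT1.0 on day 4 and from 1 to 4 in CT1.0 on day 8. For the labels they were 1 to 1 for WT CT0.4 against IWP2 on day 4, 1 to 3 for KO CT1.0 against IWP2 and 1 to 2 against CT0.4 on day 4, and 0 to 2 for KO CT0.4 against IWP2 on day 8. For time they were 2 to 3 for WT CT0.4 and 3 to 4 for WT CT1.0 day 8 against day 4, 2 to 6 for KO CT1.0 day 4 against ES, and 1 to 2 for KO IWP2 day 8 against day 4. For the KO effect they were 0 to 2 in CT1.0 against IWP2 and 0 to 2 against CT0.4 on day 4, 1 to 2 and 0 to 3 on day 8, and 0 to 2 for day 8 against day 4 in CT1.0.

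Over all genes the KO and WT libraries of CT1.0 on day 4 gave 3453 higher and 694 lower calls, against 1765 and 2545 with median-ratio scaling, and 1244 calls in all with only the libraries compared; on day 8 these were 1210 and 2779, against 1642 and 1888 with that scaling and 0 with only the libraries compared. The 2 libraries per group limit precision, and the depth of these TPM is unknown.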
